A study of Mus musculus with 15 samples.

Results

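Gene expression in wild-type (WT) ventral skin was compared with that in WT mammary buds of mouse embryos. The comparison rests on 6 of the 15 arrays of the study, taken by their labels, with 3 arrays of WT ventral skin and 3 of WT buds. All tissue came from CD-1 embryos on embryonic day 15 and was hybridised to Affymetrix MOE430A arrays, on which several short probes for a transcript form a probe set. Beside these, the study holds 3 arrays each of ventral skin labelled K14WT, which is a second wild-type skin group set against the transgenic skin, of ventral skin labelled K14-PTHrP, and of mammary buds labelled PTHrP-/-. In K14-PTHrP embryos a keratin 14 promoter drives parathyroid hormone-related protein (PTHrP) in basal epidermal cells. RNA was made from pools of same-genotype tissue, and about 120 buds were needed on average for some 20 ug of RNA. Whether each array of a group had its own pool is not stated in the labels. The p-values below therefore reflect only the variation among these arrays, part or all of which may be technical.

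The mammary bud is a ball of epithelial cells that sinks from the ventral epidermis into the underlying dermis, where it is wrapped by a condensed mesenchyme. Its epithelium secretes PTHrP, the product of Pthlh, and the mesenchyme around it carries the receptor, the product of Pth1r. This signal is known to specify the mammary mesenchyme and to keep the overlying skin from forming hair follicles. The ventral skin between the buds consists of stratifying epidermis over a dermis rich in fibroblasts and matrix, with hair placodes, vessels and resident macrophages.

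Expression levels are log2 values as normalized by the authors, and differences are WT skin minus WT buds, each given with its standard error (SE) from the model. A probe set passed the test at a Benjamini-Hochberg adjusted p under 0.05 in limma, which fitted the 5 group means of all 15 arrays. Arrays correlated across probe sets at r = 0.989 to 0.994 within the 2 groups and 0.987 to 0.991 between them, and array medians lay between 3.86 and 3.98. The median SD over probe sets was 0.12 in WT skin and 0.13 in WT buds. The control probe sets for 18S ribosomal RNA stood apart. The middle one read 6.90 to 7.63 in WT skin, while K14WT skin read 9.27 to 10.91, against 8.62 to 9.10 in WT buds. The 3′ minus 5′ difference of the Gapdh control, a sign of RNA degradation, was 0.66 to 0.91 in WT skin and 0.72 to 1.03 in WT buds, and that of Actb was 1.27 to 1.61 in WT skin and 1.20 to 1.67 in WT buds. Both overlapped between the groups, and the part of 18S RNA in the results was not tested.

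Some WT skin values appear to stand at the wrong probe set in the deposited table. For 137 probe sets the mean of WT skin lay more than 1 log2 unit outside the range of the other 4 group means, and 60 of them sat in 3 dense runs of neighbouring rows. The authors' deposited table of genes higher in WT skin lists Lman1, a cargo receptor of the secretory pathway, at a WT skin signal of 383, while the value table holds 4.51 there and K14WT skin reads 156. Sh3bgrl is listed at 378 in the authors' deposited table but stands at 12.7 in the value table, with 295 in K14WT skin. Such probe sets were set aside, which left 11561 for the test, and each difference over 2-fold was held against K14WT skin. A difference is called shared below where all K14WT arrays were beyond every WT bud array in the same direction as WT skin and the K14WT mean had moved by at least 0.5 of the WT skin difference.

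**Figure D1:**
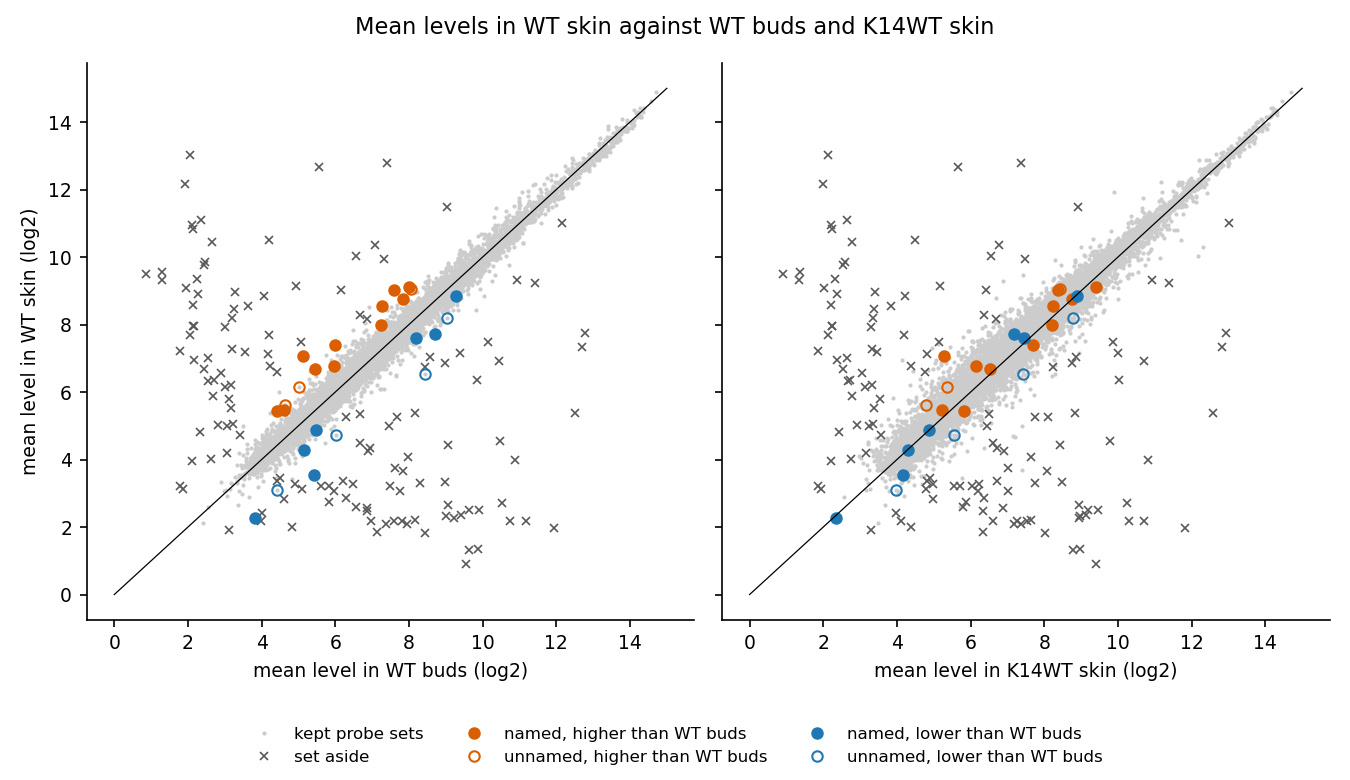
Mean log2 level of each probe set in WT skin (vertical axis) against its mean in WT buds (left) and in K14WT skin (right), 3 arrays a group. Grey points are the 11561 kept probe sets, crosses the ones set aside, filled circles the 18 named probe sets past the test and open circles the 7 unnamed ones; most crosses lie far from the line of equality in both panels.

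WT skin and WT buds differed in 25 of 11561 probe sets (0.216%), of which 14 were higher (0.121%) and 11 lower (0.0951%) in WT skin. Gene names were known for 18 of them, and 16 are described here. Higher in WT skin were genes of secreted and matrix proteins (Cpxm2, Egfl6, Aspn, Htra1) and the adhesion molecule Vcam1. So were the Wnt inhibitor Wif1, the hedgehog receptor Ptch1, and the enzymes P3h1 and Ctsh. Lower were Pthlh, the transcription factors Sim2 and Myb, the epithelial structural genes Krt18 and Col17a1, the histone demethylase Kdm5b and the actin adaptor Pdlim1. All 25 had no overlap between the arrays of the 2 groups, which a small p on the same arrays favours. Of all kept probe sets, 8.98% were higher and 8.90% lower without overlap. K14WT skin shared 16 of the 18 named differences. That count reads K14WT skin against the same WT bud arrays and leaves out the probe sets set aside, and among all kept probe sets on the authors' lists for this comparison 109 of 316 higher and 107 of 193 lower were shared. All 18 stand on those lists, which were chosen on these same arrays. Names come only from the authors' lists, so the 7 unnamed ones cannot stand on one. Of these 7, 4 lie in the dense runs and 1 was shared by K14WT skin. An unadjusted p under 0.05 was reached by 559 probe sets higher (4.84%) and 522 lower (4.52%). Of the 18 named genes, 12 still passed when the limit for setting aside was lowered to 0.5 log2 units, which left 16 of them in the test. Only 3 passed without WT skin replicate 1 (Cpxm2, Pthlh and Ctsh), and 6 in a fit of the 6 arrays alone.

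In bulk tissue, fewer cells of a type and less RNA per cell cannot be told apart, and each difference below can hold either. The genes of secreted signals and their receptors come first. Ptch1, the hedgehog receptor that is itself induced by hedgehog signalling, was at 8.74, 8.81 and 8.67 in WT skin, against 7.96, 7.67 and 7.87 in WT buds. The WT skin arrays lay together above all WT bud arrays, a difference of 0.91 ± 0.12 (SE, adjusted p = 0.00746), or 1.88-fold. K14WT skin read 8.55 to 8.92, which overlaps WT skin. Wif1, a secreted protein that binds and blocks Wnt ligands, was at 6.83, 6.37 and 6.85 in WT skin and at 5.64, 5.29 and 5.42 in WT buds. It was 2.35-fold higher, by 1.23 ± 0.18 (adjusted p = 0.0112), and K14WT skin stood at 6.11 to 6.91.

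Pthlh showed the largest fall among the named genes past the test. Its only named probe set read 3.82, 3.36 and 3.46 in WT skin, against 4.87, 5.85 and 5.57 in WT buds. Every WT skin array was below every WT bud array, by 1.88 on average (-1.88 ± 0.24, adjusted p = 0.00691), and K14WT skin lay between at 3.86 to 4.38. In the authors' deposited table the probe set is called absent on 3 of 3 WT skin arrays, and in WT buds present on 2 and marginal on 1. The size of the fall is therefore not exact. The receptor gene Pth1r was at 9.09, 9.36 and 9.35 in WT skin and at 8.24, 8.22 and 8.86 in WT buds. The groups did not overlap, but the difference of 0.83 ± 0.30 missed the threshold (adjusted p = 0.374), and K14WT skin at 7.73 to 8.35 did not share it. Ramp2, which encodes a partner protein of calcitonin family receptors and of the PTHrP receptor, was at 9.65, 9.30 and 9.46 in WT skin and at 10.27, 10.45 and 10.26 in WT buds at its brightest probe set. That difference of -0.86 ± 0.38 missed as well (adjusted p = 0.51), and another, dimmer probe set of Ramp2 ran the other way without passing (0.33 ± 0.20, adjusted p = 0.687). Of 7 named members of the PTHrP pathway list Pthlh passed, where 0.216% of all kept probe sets did. Names come only from the authors' lists of differing genes, so the shares cannot be compared and no enrichment is read from them.

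Ptch1 and Pthlh had the smallest adjusted p of the genes higher and lower in WT skin whose difference K14WT skin shared, so their promoters are printed here, from 250 bases before to 50 after the transcription start (RefSeq, GRCm38.p6). Ptch1 lies on the minus strand at chr13:63565686-63565985 and Pthlh on the minus strand at chr6:147263964-147264263. Capitals mark the GC box, GGGCGG on either strand.
Ptch1: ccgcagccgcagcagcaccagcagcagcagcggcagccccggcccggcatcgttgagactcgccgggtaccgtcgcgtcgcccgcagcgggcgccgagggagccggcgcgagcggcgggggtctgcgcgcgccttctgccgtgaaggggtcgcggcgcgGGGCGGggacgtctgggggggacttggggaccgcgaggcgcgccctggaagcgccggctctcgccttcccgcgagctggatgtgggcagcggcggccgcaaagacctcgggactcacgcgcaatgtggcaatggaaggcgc
Pthlh: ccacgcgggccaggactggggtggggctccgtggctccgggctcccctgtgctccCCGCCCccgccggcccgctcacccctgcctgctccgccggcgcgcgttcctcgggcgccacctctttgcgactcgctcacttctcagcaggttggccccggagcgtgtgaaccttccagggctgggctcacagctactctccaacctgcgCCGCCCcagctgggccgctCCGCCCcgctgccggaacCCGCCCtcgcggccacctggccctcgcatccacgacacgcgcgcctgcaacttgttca
The Ptch1 window holds 1 GC box and the Pthlh window 4, and 35.7% of 32851 promoters of the same length hold at least 1. The GLI motif GACCACCCA, the TCF/LEF motif CTTTGA, the AP-1 motif TGANTCA and the cyclic AMP response element TGACGTCA, each searched on both strands, have no match in either window. They occur in 0.253%, 16%, 7.81% and 1.79% of all promoters. None of these 4 motifs was found in the promoter of any of the 13 named genes past the test that the table holds, while a GC box was found in 6 of 7 genes higher and 4 of 6 lower in WT skin.

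Genes of the matrix and of secreted proteases made up most of the remaining rises. Cpxm2, a secreted member of the carboxypeptidase family, was at 6.89, 6.89 and 7.41 in WT skin, against 5.01, 5.16 and 5.23 in WT buds. It was 3.80-fold higher (1.93 ± 0.22, adjusted p = 0.00171), the largest rise among the genes past the test, but K14WT skin at 4.75 to 5.69 stood with the buds. Vcam1, an adhesion molecule that binds integrins, was at 9.11, 9.02 and 8.91 in WT skin and at 7.76, 7.72 and 7.32 in WT buds. It was 2.66-fold higher (1.41 ± 0.20, adjusted p = 0.0101), and K14WT skin spread over 7.89 to 8.84, above the buds. A second, dimmer probe set of Vcam1 was also above the buds on each array, by 0.49 ± 0.29 (adjusted p = 0.682).

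Egfl6, a secreted matrix protein with epidermal growth factor repeats, was at 7.72, 6.90 and 7.58 in WT skin and at 6.17, 5.83 and 5.97 in WT buds. Its difference of 1.41 ± 0.26 lay close to the threshold (adjusted p = 0.0490), and 13 of 21 alternative settings put it past 0.05. K14WT skin was at 7.09 to 8.01. Aspn, a small leucine-rich proteoglycan that binds collagen, was at 9.41, 8.63 and 9.32 in WT skin and at 7.86, 8.12 and 8.02 in WT buds. It was higher by 1.12 ± 0.17 (adjusted p = 0.0154) and K14WT skin at 9.22 to 9.51 was as high as WT skin. Its second probe set differed by 1.54 ± 0.48 without passing (adjusted p = 0.296).

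Htra1, a secreted serine protease, was at 8.58, 8.77 and 8.28 in WT skin and at 7.20, 6.99 and 7.63 in WT buds, with K14WT skin at 8.17 to 8.34. The difference was 1.27 ± 0.20 (adjusted p = 0.0154), and 0.61 ± 0.12 at its second probe set (adjusted p = 0.0665). Ctsh, a lysosomal cysteine protease, was at 7.78, 8.15 and 8.04 in WT skin and at 7.10, 7.34 and 7.26 in WT buds. This 1.69-fold difference (0.76 ± 0.11, adjusted p = 0.00750) was lost only in the fit of the 6 arrays alone, with K14WT skin at 8.15 to 8.27. P3h1, which hydroxylates prolines of collagen chains in the endoplasmic reticulum, was at 7.03, 6.70 and 6.54 in WT skin and at 5.91, 5.86 and 6.08 in WT buds (0.81 ± 0.13, adjusted p = 0.0199). K14WT skin at 5.94 to 6.32 overlapped the buds, and a second probe set of P3h1 differed by 0.63 ± 0.21 without passing (adjusted p = 0.337).

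The other named falls follow, beginning with Sim2 and Myb. Sim2, a basic helix-loop-helix transcription factor, was at 2.32, 2.22 and 2.29 in WT skin, against 3.14, 3.76 and 4.57 in WT buds. The WT skin arrays clustered tightly below the scattered WT bud arrays (-1.54 ± 0.25, adjusted p = 0.0223), and K14WT skin at 2.32 to 2.38 was as low. In the authors' deposited table Sim2 is called present on 3 WT bud arrays and on no WT skin array, so the size of this fall is not exact. Sim2 was kept for the test only through arrays of WT buds and K14-PTHrP skin, where it is high, which favours a fall. Myb, a transcription factor of proliferating progenitor cells, was at 4.36, 4.37 and 4.09 in WT skin and at 4.91, 5.22 and 5.32 in WT buds (-0.88 ± 0.15, adjusted p = 0.0231). K14WT skin lay at 4.09 to 4.48, below every bud array.

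Krt18, the type I keratin of simple epithelia, was at 7.34, 7.81 and 8.06 in WT skin and at 8.63, 8.68 and 8.82 in WT buds. It was lower by 0.98 on the log2 scale (-0.98 ± 0.18, adjusted p = 0.0490) and lower still in K14WT skin, at 6.99 to 7.34. The call was lost in 13 of 21 alternative settings. Krt8, its type II partner, moved alike at 3 probe sets, by -1.13 ± 0.22, -0.80 ± 0.16 and -0.81 ± 0.17, with adjusted p from 0.0592 to 0.0769. All 3 stand on the authors' list of genes lower in WT skin. For every gene here, a probe set has a name only if a list of the authors holds it. Likeness between probe sets of a gene is therefore not independent evidence. Col17a1, the transmembrane collagen of hemidesmosomes, was at 7.62, 7.55 and 7.66 in WT skin and at 8.30, 8.25 and 8.01 in WT buds (-0.58 ± 0.09, adjusted p = 0.0208), and K14WT skin read 7.42 to 7.46.

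Pdlim1, an adaptor that ties LIM and PDZ domain partners to actin, had the smallest difference among the named genes past the test. It was at 8.88, 8.90 and 8.77 in WT skin and at 9.27, 9.25 and 9.29 in WT buds (-0.42 ± 0.08, adjusted p = 0.0457), a call lost in 14 of 21 alternative settings. Kdm5b, which removes methyl groups from lysine 4 of histone H3, was at 4.93, 4.82 and 4.90 in WT skin and at 5.54, 5.40 and 5.49 in WT buds (-0.59 ± 0.11, adjusted p = 0.0445), a call lost in 11 of the 20 alternative settings that tested it. In the authors' deposited table this probe set is called absent on 3 WT skin arrays and present on no WT bud array, and a brighter probe set of Kdm5b differed by -0.33 ± 0.20 without passing (adjusted p = 0.712).

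**Figure D2:**
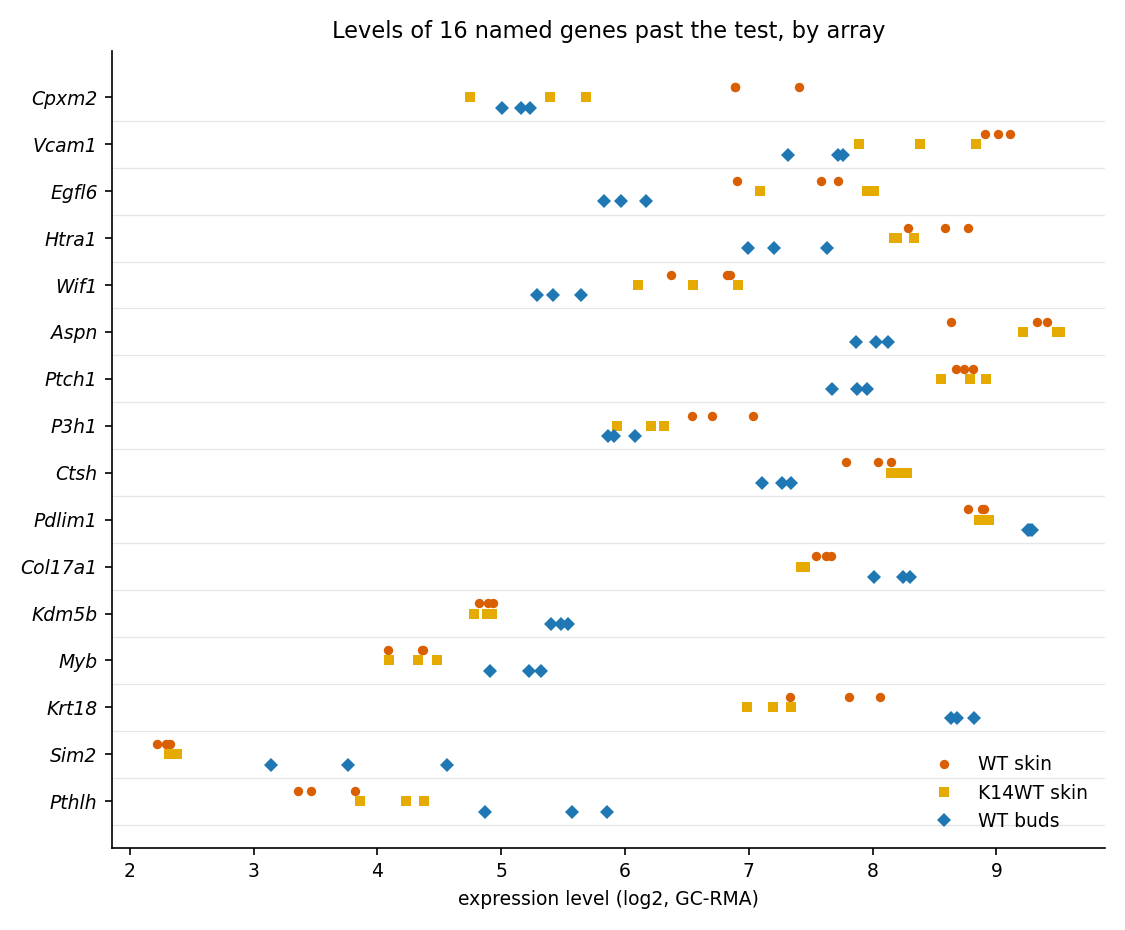
Log2 level of each of 16 named genes past the test on every array (horizontal axis), with WT skin as circles, K14WT skin as squares and WT buds as diamonds, genes ordered from the largest rise to the largest fall. WT skin and WT buds do not overlap for any gene, and K14WT skin overlaps the buds for Cpxm2 and P3h1.

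Over 2-fold differences without overlap numbered 22 higher (0.190%) and 14 lower (0.121%) in WT skin, and K14WT skin shared 13 and 6 of them. Some of these missed the adjusted threshold. The matricellular factor Ccn4, a known Wnt target, was at 7.78, 7.63 and 8.12 in WT skin and at 6.34, 6.23 and 6.85 in WT buds (1.37 ± 0.26, adjusted p = 0.0580). Its relative Ccn3 was 2.33-fold and 2.56-fold higher at 2 probe sets (adjusted p = 0.0629 and 0.0748), and the splicing factor Bcas2 was 2.45-fold higher (adjusted p = 0.175). In the other direction, Tac1, which encodes the substance P precursor, was at 4.57, 4.41 and 4.48 in WT skin and at 5.41, 6.18 and 5.55 in WT buds (-1.23 ± 0.25, adjusted p = 0.0740), with the WT skin arrays called absent in the authors' deposited table, so the size is not exact. Tbx3, a T-box factor needed for mammary buds to form, was at 3.65, 4.04 and 4.03 in WT skin and at 4.96, 5.28 and 4.5 in WT buds (-1.0 ± 0.29, adjusted p = 0.259).

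Gene lists describe the tissues more broadly, but a gene has a name here only if it stands on a list of differing genes from the authors. The authors' lists for this comparison, chosen on these same arrays, hold 15 of 18 named dermal fibroblast and 26 of 31 extracellular matrix genes. They hold 2 of 18 skeletal muscle genes. Named members not on them stand on the authors' lists of PTHrP-/- buds against WT buds, which share the WT bud arrays. Neither the direction nor the counts of named members are therefore independent evidence. The shares over all kept probe sets are given for scale and are no like baseline for named genes. Groups without overlap made up 8.98% of all kept probe sets in the higher and 8.90% in the lower direction, and the median difference of all was 0.01. The share past the test was 0.121% higher and 0.0951% lower. Of 19 named bud epithelium genes, 4 fell (Pthlh, Sim2, Krt18 and Myb), none rose, and 12 were lower without overlap, with a median of -0.65. The serine protease inhibitor Spint2 was at -0.70 ± 0.16 (adjusted p = 0.120). Of 18 dermal fibroblast genes, Cpxm2 and Aspn rose and 15 were higher without overlap, with a median of 0.68. Among those that did not pass were the retinoic acid binding protein gene Crabp1 (1.09 ± 0.21, adjusted p = 0.0570) and the mesenchymal homeobox gene Prrx1 (0.71 ± 0.13, adjusted p = 0.0580).

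Of 31 extracellular matrix genes, Egfl6 and Aspn rose, Col17a1 fell, and 20 were higher and 2 lower without overlap (median 0.66). Col4a1, a collagen of basement membranes, was at 0.84 ± 0.16 (adjusted p = 0.0570). Among 23 proteases and inhibitors Cpxm2 and Htra1 rose, and 11 were higher and 2 lower without overlap (median 0.53). The membrane metalloproteinase Mmp14 was at 1.16 ± 0.22 (adjusted p = 0.0553), not shared by K14WT skin, and the authors' deposited table calls it absent on 3 WT bud and 2 WT skin arrays, so that size is not exact. Of 11 adhesion and guidance genes Vcam1 rose and 5 were higher without overlap (median 0.54). The semaphorin receptors Nrp1 and Nrp2 were at 0.79 ± 0.20 and 0.54 ± 0.14, and the ephrin receptor Epha3 at 0.89 ± 0.25, with adjusted p from 0.153 to 0.232.

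The surface epithelium gave smaller values. None of 14 epidermal differentiation genes passed, and 9 were lower without overlap in WT skin (median -0.39). Krt4 was at -0.68 ± 0.15 (adjusted p = 0.0922) and S100a14, a calcium-binding protein of epithelia, at -0.49 ± 0.11 (adjusted p = 0.121). Of 8 basal keratinocyte genes Col17a1 fell, with a median of -0.24. Signalling lists split. Of 9 genes on the list of bone morphogenetic protein (BMP) and TGF-beta signalling, 1 rose and none fell. On that list 3 were higher and 2 lower without overlap (median -0.03). Id1, which BMP signals induce, stood at -0.64 ± 0.12 (adjusted p = 0.0592). Of 4 Wnt inhibitors and targets Wif1 rose, while Sostdc1, an inhibitor of Wnt and BMP signalling, was at -0.63 ± 0.14 (adjusted p = 0.102). None of 4 Wnt ligands and receptors passed, with the Wnt agonist Rspo1 at -0.96 ± 0.36 (adjusted p = 0.411). Ptch1 was the only hedgehog gene named. No member passed among 12 FGF and EGF genes, of which 4 were higher without overlap, 14 cell cycle genes, of which 3 were higher, 5 immediate early genes, of which 2 were lower, or 10 adipocyte genes, of which 2 were higher and 3 lower.

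Markers of other cells that either dissection could hold were read over all named and kept members, which are a part of each list. These were 6 of 29 leukocyte, 8 of 29 endothelial, 18 of 54 skeletal muscle and 5 of 24 erythroid genes. As the names come from the authors' lists of differing genes, the sums do not measure a cell type. None of 6 named leukocyte genes passed, but 5 were higher without overlap, and their summed linear signal was 1279 to 1427 in WT skin, with 931 to 1239 for K14WT skin, against 836 to 1019 in WT buds. The macrophage complement gene C1qa was at 6.90, 7.20 and 7.20 in WT skin and at 6.14, 6.26 and 6.47 in WT buds (0.81 ± 0.17, adjusted p = 0.0702), and the authors' deposited table calls it present on none of these 6 arrays. Of 8 endothelial genes 3 were higher and 1 lower without overlap, none passing, with a median of 0.58. Their summed signal was 1709 to 2154 in WT skin, with 1278 to 1715 for K14WT skin, against 2050 to 2241 in WT buds. Ramp2, the 1 that was lower, weighs heavily in that sum, with a mean signal of 712 in WT skin and 1286 in WT buds. The endothelial adhesion molecule Esam was at 0.80 ± 0.16 (adjusted p = 0.0629) and Plvap, of vessel diaphragms, at 0.72 ± 0.19 (adjusted p = 0.191). None of 18 skeletal muscle genes passed, and their summed signal was 10932 to 16935 in WT skin, with 19075 to 26177 for K14WT skin, against 14345 to 15405 in WT buds. K14WT skin was thus above both other groups in these genes on every array. None of 5 erythroid genes passed either, with 23373 to 27851 in WT skin, with 25566 to 32369 for K14WT skin, against 24890 to 27910 in WT buds. Dermal fibroblast genes summed to 36752 to 46403 in WT skin, with 40916 to 41987 for K14WT skin, against 27490 to 31373 in WT buds. Bud epithelium genes summed to 4778 to 6168 in WT skin, with 4274 to 5558 for K14WT skin, against 7510 to 7840 in WT buds. The part of tissue composition in the results was not tested.

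**Figure D3:**
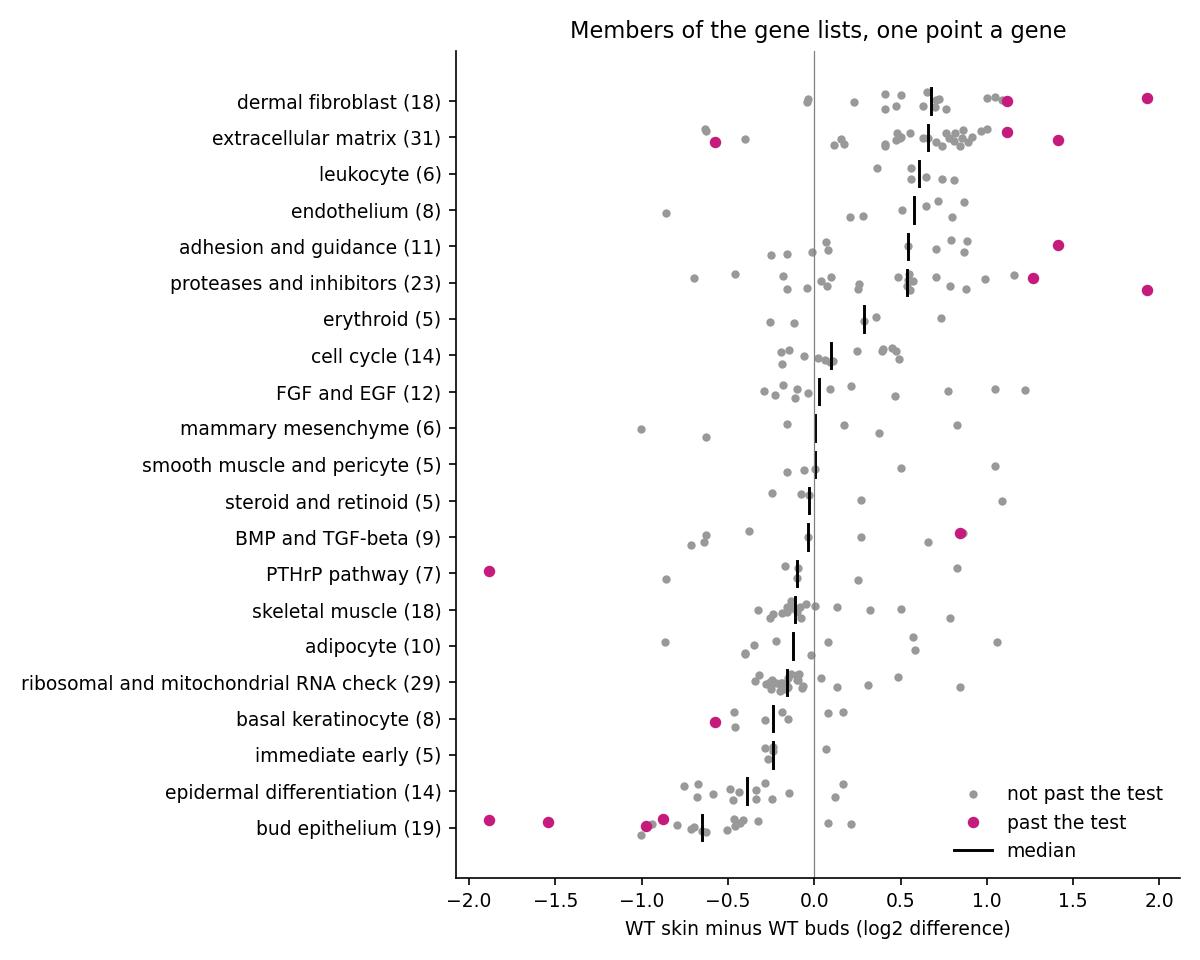
Difference between WT skin and WT buds (log2, horizontal axis) for each named member of the lists with at least 5 members, the number of members in brackets. Black bars are medians and pink points genes past the test; medians run from 0.68 for dermal fibroblast genes at the top to -0.65 for bud epithelium genes at the bottom.

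K14WT skin, the other wild-type skin, differed from WT skin in 603 probe sets (5.22%), with 533 higher (4.61%) and 70 lower (0.605%) in WT skin. K14WT skin differed from WT buds in 1325 (11.5%), with 248 higher (2.15%) and 1077 lower (9.32%) in K14WT skin. These comparisons share arrays with that of WT skin and WT buds. Cpxm2 was higher in WT skin than in K14WT skin by 1.78 ± 0.22 (adjusted p = 0.00327) and P3h1 by 0.61 ± 0.13 (adjusted p = 0.0222). With the mean of both wild-type skins set against WT buds, 58 probe sets were higher and 126 lower, and all 18 named genes were among them. That fit holds the same WT skin and WT bud arrays, and a call in it can come from K14WT skin alone. The unnamed probe set with its smallest p read 3.68 in WT skin, 3.75 in WT buds and 7.40 in K14WT skin. In that fit Krt8 fell at 3 probe sets, by -0.90 to -1.10, and Ccn3, Ccn4, Col4a1, Esam, Nrp1, Id1, Sostdc1, Spint2, Krt4 and Tac1 passed as well, each in the direction given above. Ramp2 passed too, lower by 1.53 to 1.88 at 3 probe sets, though K14WT skin lay well below WT skin at its brightest one, at 6.29 to 8.29, and the dimmer probe set again ran the other way.

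The other groups place these genes where PTHrP is labelled as lost in the bud or driven in the skin. Buds labelled PTHrP-/- differed from WT skin in 40 probe sets (0.346%), with 12 higher (0.104%) and 28 lower (0.242%), a comparison that holds the same WT skin arrays as the one above. PTHrP-/- buds were lower than WT skin by -1.98 ± 0.22 for Cpxm2, -1.10 ± 0.13 for P3h1, -1.11 ± 0.20 for Htra1 and -0.72 ± 0.11 for Ctsh, with adjusted p from 0.00248 to 0.0282. Ptch1 was intermediate, with 8.29, 8.16 and 8.25 in PTHrP-/- buds, and the difference from WT skin of -0.51 ± 0.12 did not pass (adjusted p = 0.120). Pthlh was at 6.81, 6.28 and 6.11 in PTHrP-/- buds, above WT skin by 2.85 ± 0.24 (adjusted p = 0.000286). The sources used here do not say whether its probes fall within the deletion, and it therefore checks no label. Sim2 read 2.33, 2.40 and 2.39 in PTHrP-/- buds, Myb 4.53, 4.38 and 4.39 and Col17a1 7.62, 7.76 and 7.77. Those levels differed from WT skin by 0.09 ± 0.25, 0.16 ± 0.15 and 0.11 ± 0.09, with adjusted p from 0.724 to 0.932.

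K14-PTHrP skin against K14WT skin shares no array with the comparison of WT skin and WT buds, although both take their spread from the same fit. In it 84 probe sets passed (0.727%), of which 61 were higher (0.528%) and 23 lower (0.199%). Of the 11 named genes higher in WT skin than in WT buds, 5 fell in K14-PTHrP skin and 1 rose, and 4 of those that fell are given here. Ptch1 was at 7.10, 7.51 and 7.32 in K14-PTHrP skin, against 8.79, 8.55 and 8.92 in K14WT skin (-1.44 ± 0.12, adjusted p = 4.09e-05). Those K14-PTHrP levels lay below all WT bud arrays. Vcam1 was at 7.19, 6.86 and 7.30 in K14-PTHrP skin and at 8.84, 7.89 and 8.38 in K14WT skin (-1.25 ± 0.20, adjusted p = 0.0111). Egfl6 (-1.29 ± 0.26) and Ctsh (-0.51 ± 0.11) also fell, with adjusted p of 0.0390 and 0.0452. Wif1 was at -0.83 ± 0.18 and missed (adjusted p = 0.0633), and Aspn was at -0.07 ± 0.17. The gene that rose was Cpxm2 (1.97 ± 0.22), whose K14WT level stood apart from WT skin, as above.

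Of the 7 named genes that fell in WT skin relative to WT buds, 2 rose in K14-PTHrP skin. Sim2 was at 4.30, 4.49 and 3.95 in K14-PTHrP skin, against 2.32, 2.37 and 2.38 in K14WT skin (1.89 ± 0.25, adjusted p = 0.00252), which places it among the WT bud arrays. Its being kept for the test only through arrays of those groups, K14-PTHrP skin and WT buds, favours such a rise. Col17a1 was at 7.93, 8.10 and 8.0 in K14-PTHrP skin and at 7.46, 7.42 and 7.45 in K14WT skin (0.57 ± 0.09, adjusted p = 0.0113). Krt18, Myb, Kdm5b and Pdlim1 differed by -0.23 to 0.07 with adjusted p from 0.595 to 0.985. Pthlh read 3.60, 3.64 and 3.39 in K14-PTHrP skin and 3.86 to 4.38 in K14WT skin (-0.61 ± 0.24, adjusted p = 0.366), and the sources used here do not say whether the probe set reads the transgene.

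**Figure D4:**
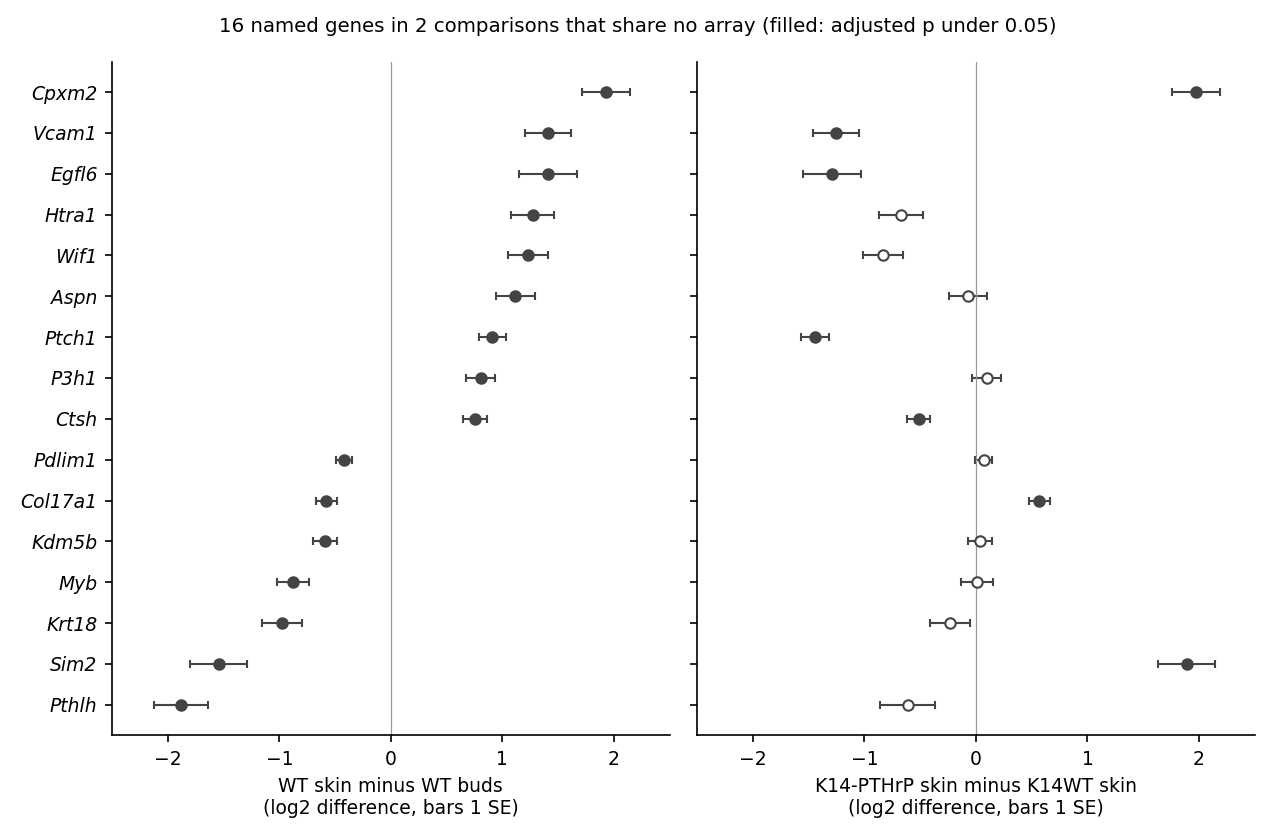
Log2 difference with 1 SE for 16 named genes in WT skin minus WT buds (left) and in K14-PTHrP skin minus K14WT skin (right), comparisons that share no array; filled points passed the test. Ptch1, Vcam1, Egfl6 and Ctsh lie right of 0 on the left and left of 0 on the right, Sim2 and Col17a1 the reverse, and Cpxm2 lies right of 0 in both.

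For some of the set-aside probe sets the authors' deposited table holds the same WT skin value as the value table, and 5 of them, whose WT skin mean was below the mean of each other group, are given here. Single K14-PTHrP arrays were as low for Thoc3 (4.38, against 4.42 to 5.96 in WT skin) and Hnrnpab (11.25, against 10.25 to 11.41 in WT skin). Rtn4, a membrane protein that shapes the endoplasmic reticulum, was at 5.33, 5.31 and 5.46 in WT skin, against 8.28, 8.46 and 7.74 in WT buds, while K14WT skin was at 8.53 to 9.26 and PTHrP-/- buds at 7.31 to 8.09. With such probe sets kept in the test, Rtn4 passed (-2.79 ± 0.47, adjusted p = 0.0236) and the other 4 did not. Those were Thoc3 (-2.45 ± 0.70), Laptm4a (-2.23 ± 0.63), the stress response gene Ddit4 (-1.55 ± 0.36) and Hnrnpab (-1.16 ± 0.37), with adjusted p from 0.118 to 0.309. For all 5 the third WT bud array was the lowest of its group, and K14-PTHrP skin spread from 6.68 to 9.22 for Rtn4.

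**Figure D5:**
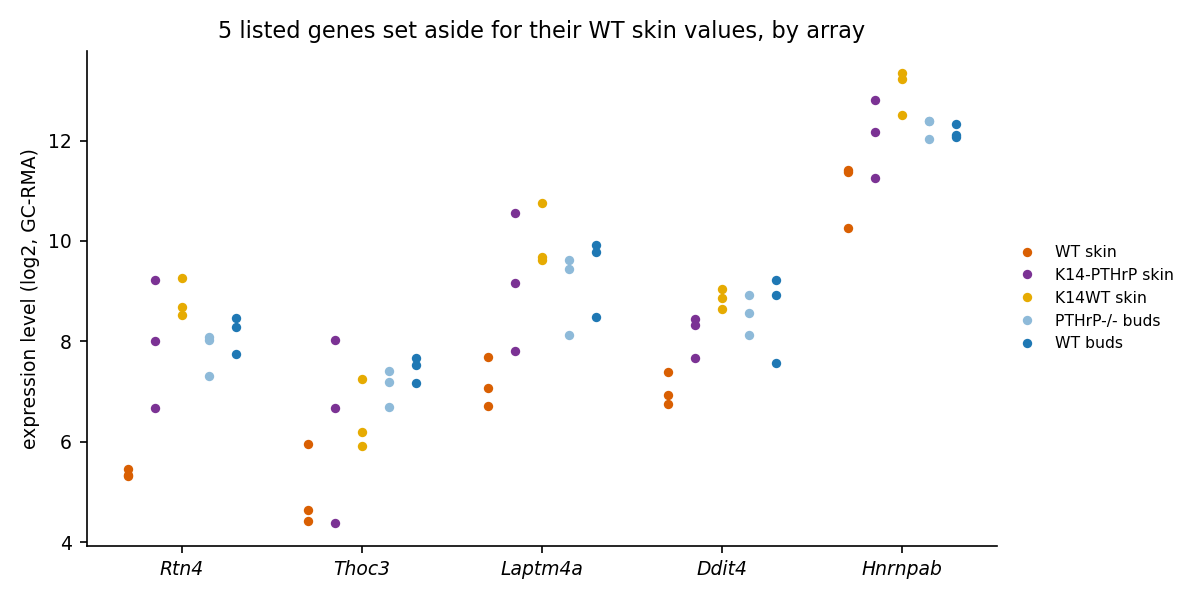
Log2 level on each array (vertical axis) of 5 genes that were set aside although the authors' list holds the same WT skin values, with the 5 groups side by side. All 3 WT skin arrays lie below every WT bud array for each gene, and below every K14WT skin array for all but Thoc3.

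The authors' lists for this comparison hold 338 probe sets higher and 215 lower in WT skin. Of those kept, 315 of 316 and 193 of 193 had the listed direction in the value table, which holds the same arrays. The exception was Ssr3, a subunit of the translocon-associated complex, listed in the authors' deposited table at a WT skin signal of 1311 against 951 in WT buds, where the value table gives 947 in WT skin. Its shift is under the limit for setting aside, so displaced values can remain among the kept probe sets. An unadjusted p under 0.05 was reached by 268 and 152 of them, and 11 and 7 passed the adjusted threshold.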

How the data were processed

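RNA from pooled E15 CD-1 tissue was hybridised to Affymetrix MOE430A arrays, 3 for each of 5 groups. The deposited value table holds log2 expression values for 22690 probe sets, which the authors normalized with GC-RMA per the file headers; the submitters' processing notes also name MAS5 and affy. The deposited lists give mean signal intensity per group, a signed fold score and detection calls, for probe sets the authors selected with Cyber-T per the file headers. No other background correction or normalization was added. Groups come from the labels. Gene names come from the symbols in the lists, updated by gene ID through RefSeq for 755 probe sets; 2416 probe sets were annotated and 20319 have no name here.

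Control probe sets (64) were left out. Kept were 11561 probe sets above their own array's median on at least 3 arrays and not set aside for WT skin values more than 1 log2 unit outside the other 4 group means. limma 3.58.1 (R 4.3.3) fitted 5 group means over 15 arrays with 10 residual degrees of freedom, and p-values are two-sided with Benjamini-Hochberg adjustment over all 11561. The 3 arrays a group limit the precision. In simulated data with independent normal noise, changes of 0.5, 1 and 2 log2 units were planted in 67, 67 and 66 probe sets. Of these, 23.9%, 85.1% and 98.5% were recovered, with 9 unchanged probe sets called among the 11561. Those planted numbers and that noise are not those of the real arrays, so the recovery does not carry over to them. In the real data 9 of 26 probe sets over 2-fold higher in WT skin passed, and 5 of 16 over 2-fold lower. Named by rule are the named probe sets past the test (at most 20 each way), up to 10 each way over 2-fold without overlap that K14WT skin shared, Pthlh, Pth1r, and from each gene list up to 4 members, those of lowest adjusted p. The genes with displaced or low WT skin values were added after their values were seen. A few genes that met these rules are not reported here. The members and lists were chosen with earlier results of these data known. Figures were drawn with matplotlib 3.10.9 in Python 3.11.15.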

Additional observations from a re-analysis of the deposited data

Results flagged for a closer look

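Cpxm2 and P3h1 differed between the 2 wild-type skins, by limma's test of that difference. Cpxm2 was 1.78 log2 units higher in WT skin than in K14WT skin, and P3h1 was 0.61 higher.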

How the results depend on the processing

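The count of 14 probe sets higher and 11 lower in WT skin depended on how displaced values were handled. With no probe set set aside the counts were 107 and 101, with a limit of 0.5 they were 8 and 4, and with over 2-fold differences not shared by K14WT skin also set aside 6 were lower. Leaving out the dense runs of rows, chosen after seeing the data, left 4 lower. Without a filter on dim probe sets 24 were higher and 17 lower, with the 6 arrays alone 19 were lower, with both wild-type skins against WT buds 58 and 126, and with the brightest probe set of each named gene 46 and 26. Leaving out 1 array gave 4 to 51 higher and 3 to 22 lower, with 4 and 3 without WT skin replicate 1 and 51 and 22 without WT skin replicate 3; without WT buds replicate 1 it gave 9 and 8, and without WT buds replicate 2 it gave 6 and 5. A replicate block gave 17 higher and 9 lower. Same-numbered arrays correlated in their deviations at 0.14, -0.04 and -0.12, and differently numbered ones at -0.14 to 0.16. With 3 arrays a group these values cannot show whether the numbers pair the arrays. Of 1231 values of 60 named probe sets under alternatives, 1048 stayed on their side of the threshold, 90 lost and 93 gained a call, and 0 changed direction. Cpxm2 and Pthlh passed in each alternative that tested them (Cpxm2 was set aside in 1). Probe sets near background, such as Pthlh, Sim2 and Kdm5b in WT skin, limit the size of a fall.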
